A study of Mus musculus with 4 samples.

Results

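DNA replication and S-phase genes were examined in whole brains of mouse embryos that lacked Sox4 and Sox11 in the cells reached by a Cre driver. The set held 49 genes, chosen by role (origin licensing, helicase, polymerases, clamp loading, nucleotide synthesis and chromatin assembly), and a probe set was taken where the platform annotation gave exactly 1 of these symbols. This yielded 107 of the 45037 non-control probe sets on the array for 48 of the genes, and 88 of them, again for 48 genes, were bright enough to be tested among 27022 probe sets and 12489 genes. No probe set carried the symbol Chaf1a, which was not analysed here. The 2 double-knockout arrays held brain RNA of embryos that carried Brn4::Cre together with the floxed alleles Sox4 flox/flox and Sox11 flox/flox. The 2 control arrays held brain RNA of embryos with the same floxed alleles, Sox4 flox/flox and Sox11 flox/flox, and no Cre. All embryos were taken at day 14.5 of development, and their strain background, labelled mixed, was 129SvJ/C57Bl/6J. Cre is driven by Brn4 (Pou3f4), so cells outside that driver's reach keep both genes, and the controls do not show what Cre alone does. The labels call the arrays biological replicates without saying whether an array held 1 embryo or a pool.

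Before a cell divides, the origin recognition complex marks replication origins in G1, and Cdc6 and Cdt1 load the ring of Mcm proteins onto them. In S phase Cdc45 and the GINS complex turn that ring into the active helicase, and polymerases, the sliding clamp and its loader copy the opened strands from nucleotides that ribonucleotide reductase and thymidylate enzymes supply. Many of these genes are transcribed under E2F factors as cells pass from G1 into S, and in the embryonic brain they are used by progenitors of the ventricular zones, while neurons have left the cycle.

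Each array's trimmed mean signal was 1000, a value that scaling fixes, so it is no check of the arrays. Median signals were 263.2 and 268.6 on the double-knockout arrays and 286.7 and 262 on the controls. Log2 signals of the tested probe sets correlated at 0.987 between the double-knockout arrays and 0.984 between the controls. Pairs made of 1 double-knockout and 1 control array gave 0.960 to 0.963. Sox11 read 10306.1 and 9491.3 on the double-knockout arrays and 25450.6 and 26097.2 on the control arrays at 1436790_a_at, its brightest probe set. Sox4, at its brightest probe set 1433575_at, read 37277.4 and 38262.9 on the double-knockout arrays and 36047.5 and 34818.7 on the control arrays and did not pass (log2 change 0.09). Other Sox4 probe sets differed: it read 2077.4 and 2515.9 on the double-knockout arrays and 15114.1 and 14671.3 on the control arrays at 1419156_at, while 1419157_at of Sox4 was higher in the double knockout (17453.9 and 16452.8, against 5341.9 and 4255.2 in the controls). Where the probes sit relative to the deleted sequence was not examined, and a probe set outside that sequence is no direct check of the deletion. Alb, Afp, Myh6, Ins2 and Sftpc, genes of tissues outside the brain, all lay below the signal filter, and the progenitor gene Sox2 and the neuronal gene Tubb3 were measured on every array. Signals are MAS5 intensities without a unit, and changes are differences of log2(signal + 16), double knockout minus control.

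Of the replication genes, 25% rose, and nearly all others were not past the threshold. At each gene's brightest probe set 12 of 48 rose, 1 fell and 35 did not pass limma at an adjusted p of 0.05. Over all genes tested, 16.3% rose and 11% fell. The median log2 change was 0.20 over the replication genes and 0.06 over all genes, and 36 of the 48 changes were positive. Both double-knockout arrays lay above both controls at 29 of the 48 genes (60.4%, against 39.8% of all genes) and below both at 4 (8.33%, against 27.2%). The changes were small: the 12 that rose did so by 1.25-fold to 1.74-fold, and Tk1, the highest, ranked 530 of 12489 by size of rise. In bulk tissue, more cells that express a gene and more RNA per cell cannot be told apart. The count of genes that rose was 7 without control 2, 6 without double knockout 1 and 3 without double knockout 2, and it was 3 in limma without a variance trend, while the median stayed between 0.19 and 0.21 with any array left out. Without the trend Tk1, Rpa1 and Rpa2 passed, and the other genes that rose did not. Shares of all genes in such refits are not given here or below, so their counts cannot be read against 16.3% or 11%. With 2 arrays a group, a p-value here rests on few replicates and is an imprecise guide beyond these arrays. Its variance is drawn largely from other probe sets of similar signal (2 residual and 8.334 prior degrees of freedom).

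**Figure D1:**
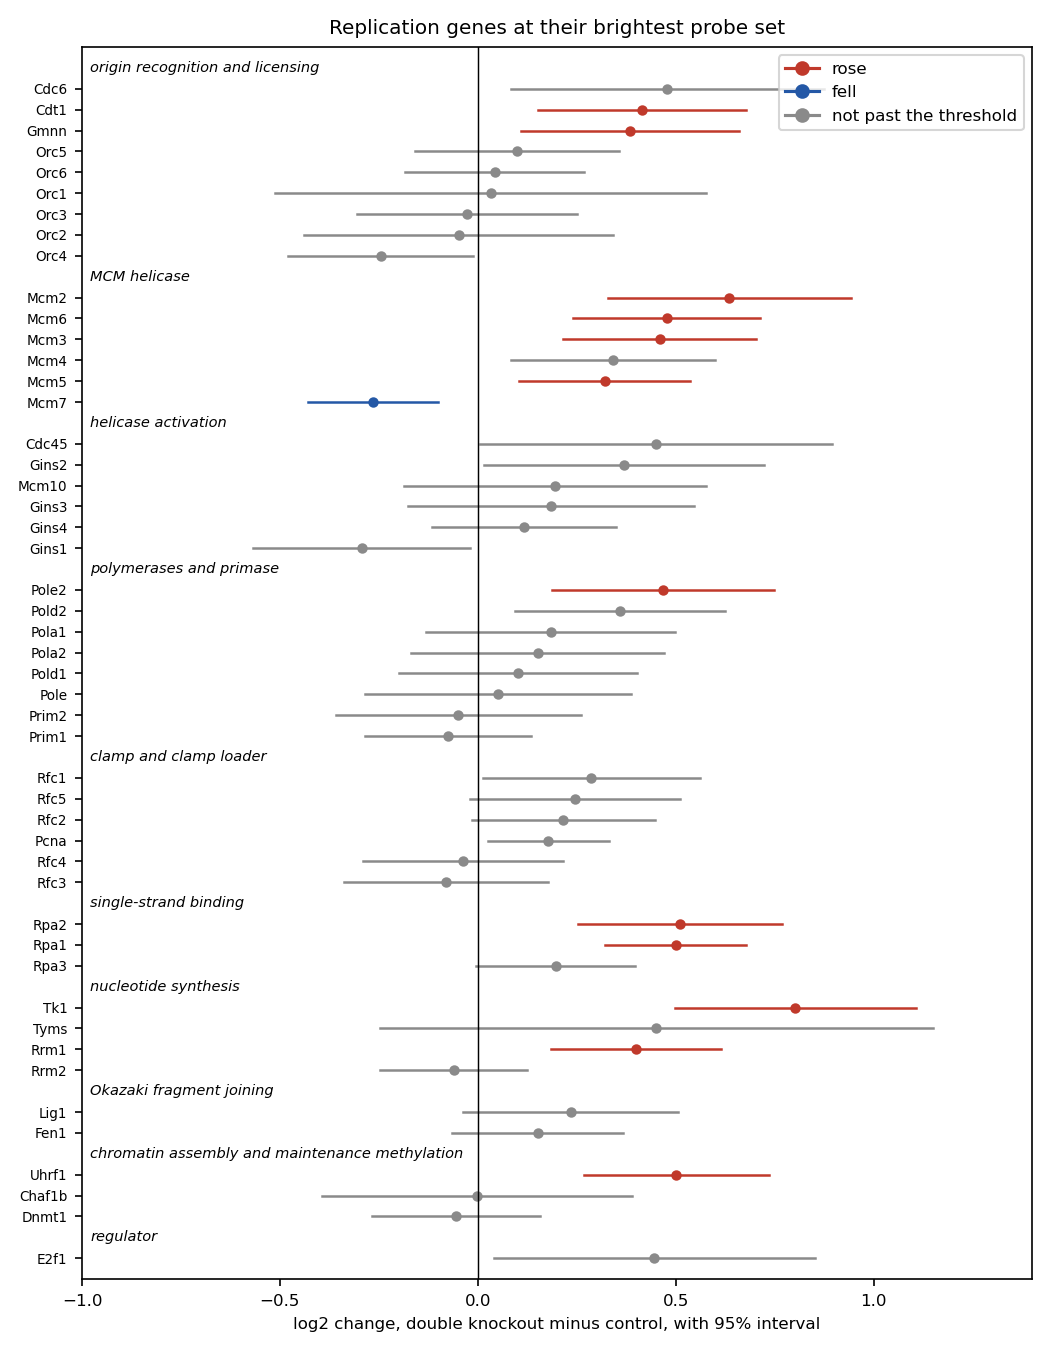
Log2 change (double knockout minus control, x axis) of 48 replication genes, grouped by role, with 95% intervals from limma; red rose, blue fell, grey did not pass. The 12 genes that rose lie between 0.32 and 0.80, and Mcm7 is at -0.27.

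The Mcm2-7 ring, the motor that unwinds DNA at the fork, held 4 of the 12 genes that rose and the gene that fell. Of its 6 genes 66.7% rose and 16.7% fell, against 16.3% and 11% of all genes. Mcm2 (1448777_at) read 2393.4 and 2093.6 on the double-knockout arrays, against 1627.6 and 1266.5 on the controls (log2 change 0.63 ± 0.14, SE, n = 2 each; limma adjusted p = 0.00891). Mcm6 (1416251_at) read 4203.6 and 5110.1 on the double-knockout arrays and 3392.1 and 3261.7 on the controls (0.48 ± 0.11, limma adjusted p = 0.0102). Mcm3 (1420028_s_at), at a probe set with the suffix s for probes shared between transcripts, read 2431 and 2347 against 1842.6 and 1630 in the controls (0.46 ± 0.11, limma adjusted p = 0.0139). In these 3 genes both double-knockout arrays lay above both controls, as they did at 39.8% of all genes.

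Mcm5 (1436808_x_at, where x marks probes that can bind related transcripts) had the smallest rise of the ring, with 3597.7 and 3987.1 on the double-knockout arrays against 3131.6 and 2933.1 on the controls (0.32 ± 0.10, limma adjusted p = 0.0384). Mcm4 was also higher on both double-knockout arrays, at 3056.4 and 3469.6 against 2808.9 and 2345.7 in the controls, and did not pass (0.34 ± 0.12, limma adjusted p = 0.058). Mcm7 went the other way. At 1438320_s_at it read 8380.5 and 7850 on the double-knockout arrays, against 9812.4 and 9699.8 on the controls (-0.27 ± 0.07, limma adjusted p = 0.0263). All 4 Mcm7 probe sets were lower on both double-knockout arrays than on both controls, with log2 changes of -0.28 to -0.07, and the other 3 did not pass. These probe sets share the same arrays, and 27.2% of all genes lay below both controls at their brightest probe set. The proteins act as a ring with 1 copy of each, and of the 6 genes Mcm7 alone had a negative change. In limma without a variance trend no gene of the ring passed. Without 1 array some of the ring's calls were lost, although no sign changed. Mcm5 did not pass in any of the 4 fits on 3 arrays (0.25 to 0.39), Mcm3 passed only without control 1 (0.37 to 0.55 over the 4), Mcm2 did not pass without double knockout 1 (0.54), and Mcm6 did not without double knockout 2 (0.34). With the probe sets of a gene averaged, Mcm3 (0.37) and Mcm5 (0.31) did not pass, nor did they at their brightest probe sets without the suffix x or s (0.32 and 0.31), and Mcm5 did not pass with no filter (0.32). Mcm7 passed only without double knockout 1 (-0.31), with -0.26, -0.27 and -0.22 without control 1, control 2 and double knockout 2, and it did not pass with median centring, with no filter, or under either of these choices of probe sets.

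Probe sets of the same Mcm gene differed in size of change. Mcm2 had a log2 change of 0.03 (limma adjusted p = 0.888) at 1434079_s_at, where the groups overlapped (1534.8 and 1695.5 in the double knockout, against 1680.5 and 1485.4 in the controls). Mcm4 had 0.03 at its other probe set. The 5 Mcm3 probe sets ranged from 0.19 to 0.53, with 1 past the threshold, and the 2 tested of Mcm6 read 0.48 and 0.24.

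**Figure D2:**
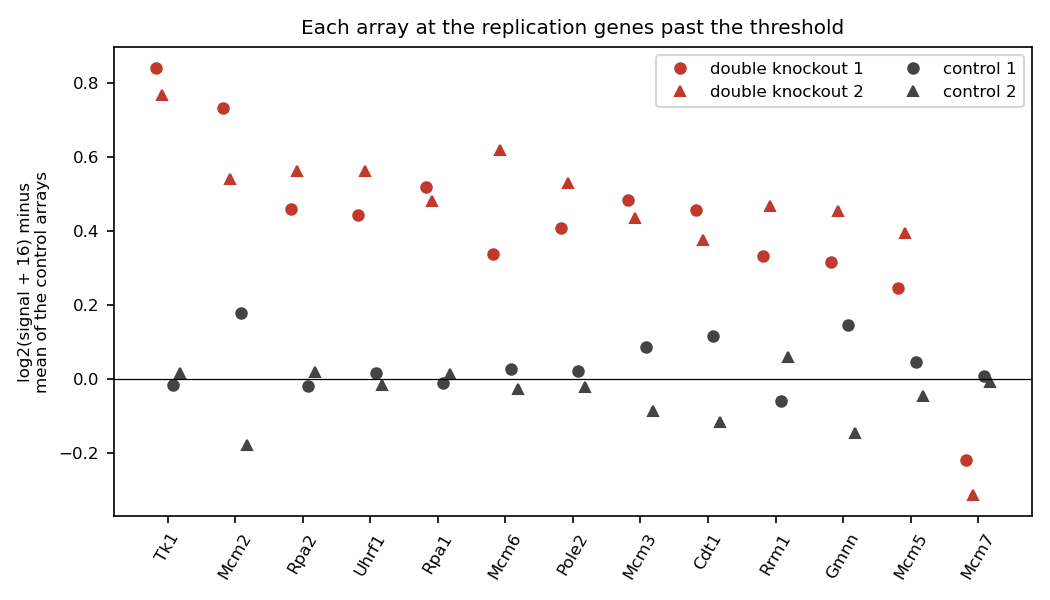
Values of the 4 arrays at the 13 replication genes past the threshold, as log2(signal + 16) minus the mean of the control arrays (y axis); red marks are the double-knockout arrays and dark marks the controls. The double-knockout arrays lie above both controls at 12 genes and below both at Mcm7.

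The promoters of the ring are shown because E2F factors are known to drive these genes. RefSeq windows of 300 bases (250 before and 50 after the start site, GRCm38.p6) were found for 41 of the 49 genes, using the first window listed for a gene. They were searched on both strands for the E2F consensus, spelled TTTCCCGC, TTTCGCGC, TTTGCCGC or TTTGGCGC. Matches may share bases with each other or with a CCAAT box. Of these 41 windows 13 held a match (31.7%), against 2.32% of 27025 genes in the table. The windows of Mcm3, Mcm5, Mcm6 and Mcm7 held 2 or 3 matches each, and that of Mcm2 held none; Mcm4 had no window in the table. Matches on either strand are in capitals in the stretches printed here, each on the gene's own strand.

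Mcm3 (chr1:20820263-20820362, minus strand): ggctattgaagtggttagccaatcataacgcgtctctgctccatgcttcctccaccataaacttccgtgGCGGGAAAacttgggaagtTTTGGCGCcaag
Mcm5 (chr8:75109312-75109411, plus strand): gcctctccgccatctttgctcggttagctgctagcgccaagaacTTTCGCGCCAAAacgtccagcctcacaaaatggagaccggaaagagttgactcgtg
Mcm6 (chr1:128359731-128359830, minus strand): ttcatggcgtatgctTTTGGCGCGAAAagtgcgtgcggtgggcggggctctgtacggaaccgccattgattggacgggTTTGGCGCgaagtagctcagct
Mcm7 (chr5:138171834-138172133, minus strand): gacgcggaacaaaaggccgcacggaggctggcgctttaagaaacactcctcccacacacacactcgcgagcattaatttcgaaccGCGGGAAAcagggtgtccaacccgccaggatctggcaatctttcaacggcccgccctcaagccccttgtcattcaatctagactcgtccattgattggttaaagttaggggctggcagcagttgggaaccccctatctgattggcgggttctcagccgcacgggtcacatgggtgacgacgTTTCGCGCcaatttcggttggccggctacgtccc

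The motif was thus found in Mcm7, which fell, and in 3 of the 4 subunits that rose. It was not found in Mcm2, which had the largest rise of the ring. In Mcm3 the matches begin 20 and 39 bases after the start site, in Mcm5 153 and 149 bases before it, and in Mcm6 110, 106 and 47 bases before it. In Mcm7 they begin 165 bases before and 17 bases after it. Among members outside the ring, the licensing factor Cdt1 and the polymerase subunit Pole2, which both rose, held 1 match each, just after the start site.

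Cdt1 (chr8:122567965-122568064, plus strand): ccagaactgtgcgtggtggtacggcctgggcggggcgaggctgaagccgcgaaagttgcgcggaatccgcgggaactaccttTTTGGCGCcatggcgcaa
Pole2 (chr12:69228141-69228240, minus strand): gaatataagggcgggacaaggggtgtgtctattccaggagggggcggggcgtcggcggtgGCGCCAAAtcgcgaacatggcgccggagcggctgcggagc

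Members with and without a match had close median changes. The 13 genes with a match had a median log2 change of 0.19, and 5 rose and 1 fell. The 27 tested genes with a window and no match had 0.20, and 6 rose and 0 fell by limma. Over all genes tested 16.3% rose and 11% fell. A match was found in 45.5% of 11 windows of members that rose and in 27.6% of 29 windows of tested members that did not. These medians and shares are given as a description, without a test. No match says only that these letters are not in this window. Tk1, Rpa1, Rpa2, Rrm1 and Uhrf1 rose and had no match. CCAAT boxes (CCAAT on either strand) were found in 25 of the 41 windows (61.0%, against 37.9% of all genes) and the element TTTGAA, known as CHR and shared by many mitotic promoters, in 5 (12.2%, against 18.1%). Of the 33 windows of other replication genes, 24.2% held the E2F consensus and 39.4% a CCAAT box. In the promoters of the mitotic list described further on, 1 of 26 held the E2F consensus (3.85%), 19 held the CHR element (73.1%) and 21 a CCAAT box (80.8%).

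**Figure D3:**
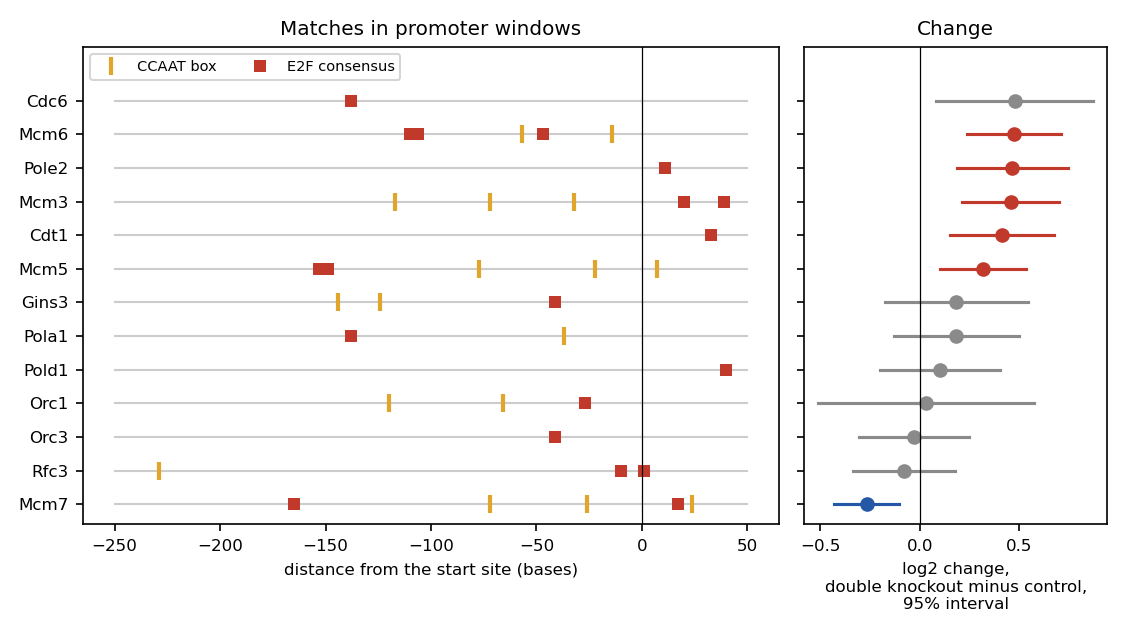
Left, first base of each E2F consensus match (red squares) and CCAAT box (yellow ticks) relative to the start site (x axis, bases) in the 13 replication genes with an E2F match; right, log2 change (double knockout minus control) with its 95% interval, red rose, blue fell, grey did not pass. Genes run by change from Cdc6 at 0.48 to Mcm7 at -0.27, and matches occur from top to bottom.

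Of 9 licensing genes 2 rose (22.2%, near the 16.3% of all genes), the loading factor Cdt1 and its inhibitor Gmnn, and the origin recognition complex was not past the threshold at any subunit. Cdt1 (1424143_a_at), which brings the Mcm ring to origins, read 2189.9 and 2068.8 on the double-knockout arrays, against 1726.4 and 1468.6 on the controls (log2 change 0.42 ± 0.12, SE, n = 2 each; limma adjusted p = 0.0291). Gmnn (geminin, 1417506_at), the inhibitor that holds Cdt1 back after licensing, read 2300.7 and 2533.7 against 2044.3 and 1667.4 in the controls (0.38 ± 0.12, limma adjusted p = 0.0475). Loader and inhibitor thus rose together by 1.33-fold and 1.31-fold. Cdc6, the ATPase that loads the ring with Cdt1, was at 588.4 and 478.5 in the double knockout and 368.2 and 384.6 in the controls and did not pass (0.48 ± 0.18, limma adjusted p = 0.0788). Cdt1 and Gmnn each passed with control 1 left out (0.53 in both) and not without control 2 (0.30 and 0.24), double knockout 1 (0.37 and 0.45) or double knockout 2 (0.46 and 0.32). With all arrays kept, neither Cdt1 nor Gmnn passed with no filter or without a variance trend, and Cdt1 did not with its probe sets averaged. The other tested Cdt1 probe set had a log2 change of 0.08.

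Orc1 to Orc6, the subunits that mark origins, had log2 changes of -0.25 to 0.10. Orc4 was the lowest, with 1922.7 and 2105.3 on the double-knockout arrays and 2449.8 and 2328.8 on the controls (-0.25, limma adjusted p = 0.121), and all 3 of its tested probe sets had negative changes. The 95% intervals of Orc5 (-0.16 to 0.36), Orc6 (-0.18 to 0.27) and Orc3 (-0.31 to 0.25) include 0, and that of Orc1 (-0.51 to 0.58), a dim probe set, is wider still. Orc3 had probe sets of both signs, at 1444.4 and 1718.9 in the double knockout against 1679.9 and 1537.9 in the controls for the brightest and log2 changes of 0.22 and -0.28 for the others, none past the threshold, and the brightest turned positive with arrays centred on their medians (0.013).

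Genes that activate the loaded ring showed no call, while 16.3% of all genes rose and 11% fell. Of the 6, 5 had positive changes with both double-knockout arrays above both controls, as had 39.8% of all genes. Gins1, a subunit of the GINS complex, was below both, as were 27.2% of all genes. Cdc45, the helicase cofactor that joins GINS, read 476.2 and 492.6 on the double-knockout arrays, against 413.6 and 296.2 on the controls (0.45 ± 0.20, limma adjusted p = 0.132). Gins2 had a log2 change of 0.37 (limma adjusted p = 0.123) and 0.57 at its other probe set. Gins1 had 1096.4 and 1257 in the double knockout, against 1428.7 and 1455.8 in the controls (-0.29 ± 0.12, limma adjusted p = 0.114). Mcm10 (0.20), which links the helicase to polymerase alpha, Gins3 (0.19) and Gins4 (0.12) lay between. Gins3 read 501.1 and 553 against 465.8 and 456.5 in the controls, and its other probe set was near 0 (-0.02). With control 1 left out Cdc45 (0.68) and Gins2 (0.58) passed.

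Among polymerases and primase, 1 of 8 genes rose (12.5%, against 16.3% of all genes). Pole2 (1427094_at), the accessory subunit of the leading-strand polymerase epsilon, read 1183.7 and 1289.2 on the double-knockout arrays and 903 and 875.2 on the controls (log2 change 0.47 ± 0.13, SE, n = 2 each; limma adjusted p = 0.0234). Pole, its catalytic subunit, read 665.9 and 591.6 in the double knockout and 618.5 and 592.4 in the controls, so that the groups overlapped (0.05, 95% interval -0.29 to 0.39). In polymerase delta, the lagging-strand enzyme, the accessory subunit Pold2 was likewise higher than the catalytic Pold1 in its change, at 0.36 (limma adjusted p = 0.0537) against 0.10, and neither passed. Pola1 (0.18) and Pola2 (0.15), of the polymerase alpha that extends primers, and the primase subunits Prim1 (-0.08) and Prim2 (-0.05) did not pass. Prim2 read 1215.8 and 1576 in the double knockout against 1432.3 and 1434.5 in the controls, and its other tested probe set had 0.26 with the groups apart. Pole2 passed without control 1 (0.49) and not without control 2 (0.45), double knockout 1 (0.53) or double knockout 2 (0.41). With all arrays kept, it did not pass without a variance trend.

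The sliding clamp and its loader showed no call among 6 genes, while 16.3% of all genes rose and 11% fell. Both double-knockout arrays lay above both controls at 4 of the 6 (66.7%, against 39.8% of all genes) and below both at 0 (against 27.2%). Pcna, the clamp that tethers polymerases to DNA, read 16905.9 and 15881.8 on the double-knockout arrays and 14977.7 and 14003.1 on the controls, so the groups were apart by a small step (0.18 ± 0.07, limma adjusted p = 0.0887, 95% interval 0.03 to 0.33). Of the loader subunits, Rfc1 (0.29), Rfc5 (0.24) and Rfc2 (0.22) were higher on both double-knockout arrays, and Rfc3 (-0.08) and Rfc4 (-0.04, or 0.004 with median centring) overlapped between the groups. Rfc1 read 1264.7 and 1421.1 in the double knockout against 1097.8 and 1094.4 in the controls, with 0.23 and -0.15 at its other probe sets. Rfc3 had a lower value at its other probe set, with 1109.2 and 1109 against 1382.5 and 1408.2 in the controls (-0.33, limma adjusted p = 0.0694).

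In replication protein A, the trimer that coats single-stranded DNA, 2 of 3 subunits rose (66.7%, against 16.3% of all genes). Rpa1 (1437309_a_at), its large subunit, read 6477 and 6316.7 on the double-knockout arrays and 4481.7 and 4557.7 on the controls (log2 change 0.50 ± 0.08, SE, n = 2 each; limma adjusted p = 0.00189), and its other probe set also rose (0.34, limma adjusted p = 0.0317). Rpa2 (1416433_at) read 1607.1 and 1725.6 against 1148.4 and 1181.2 in the controls (0.51 ± 0.12, limma adjusted p = 0.011), and it too rose at its other probe set (0.56, limma adjusted p = 0.0142). Rpa1 and Rpa2 were the 2 members with more than 1 probe set past the threshold. Rpa3, the small subunit, was at 3547.5 and 3533.5 against 3057.9 and 3115.5 in the controls and did not pass (0.20, limma adjusted p = 0.144). Rpa1 passed with each array left out (0.48 to 0.52), and Rpa2 did not without double knockout 2 (0.46).

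Nucleotide synthesis held the largest rise of the set. Tk1 (1416258_at), the thymidine kinase that salvages thymidine in cycling cells, read 1043.2 and 990.9 on the double-knockout arrays, against 569.4 and 583.2 on the controls (log2 change 0.80 ± 0.14, SE, n = 2 each; limma adjusted p = 0.00255), and passed with each array left out (0.77 to 0.84). Rrm1 (1415878_at), the large subunit of ribonucleotide reductase, read 3925.2 and 4313.3 against 2988.8 and 3248.6 in the controls (0.40 ± 0.10, limma adjusted p = 0.0148). The other tested Rrm1 probe set had 0.19 and did not pass (limma adjusted p = 0.258). Rrm2, the small subunit, known to be made in S phase, did not pass at any probe set, and its groups overlapped at the brightest, with 5436.2 and 5136.6 in the double knockout and 5682.5 and 5351.8 in the controls (-0.06, 95% interval -0.25 to 0.13). The other Rrm2 probe sets had 0.10 and 0.34, with overlapping groups, so the mean over its probe sets was 0.13. Tyms, the thymidylate synthase, was read at a dim probe set with 258.5 and 166.1 against 181.6 and 119.4 in the controls (0.45, 95% interval -0.25 to 1.15), and the groups overlapped. Rrm1 did not pass without control 1 (0.34) or double knockout 2 (0.33), nor, on all arrays, without a variance trend.

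Of the enzymes that finish lagging strands, neither Lig1, the ligase (0.23, limma adjusted p = 0.196), nor Fen1, the flap nuclease, passed at the brightest probe set. Fen1 read 2720.5 and 2803 on the double-knockout arrays and 2558 and 2415.9 on the controls there (0.15, limma adjusted p = 0.299), at a probe set with the suffix x for probes that can bind related transcripts. Its other probe set, 1421731_a_at, rose, with 1359 and 1305.7 against 1002.8 and 1001.3 in the controls (0.41, limma adjusted p = 0.0346). In chromatin assembly and maintenance methylation, Uhrf1 (1415810_at), which brings the methyltransferase to newly copied DNA, read 2359.3 and 2561.8 against 1750.7 and 1713.2 in the controls (log2 change 0.50 ± 0.11, SE, n = 2 each; limma adjusted p = 0.00748). The other Uhrf1 probe set had 0.46 and did not pass (limma adjusted p = 0.118). Dnmt1, the methyltransferase itself, overlapped between the groups at all 3 probe sets (-0.07 to -0.05), and Chaf1b, a subunit of the histone chaperone CAF-1, had -0.00 (95% interval -0.39 to 0.39; 0.039 with median centring). Uhrf1 did not pass without double knockout 2 (0.44), nor, on all arrays, without a variance trend. E2f1, a transcription factor of the G1 to S passage, read 761.6 and 665.7 on the double-knockout arrays, against 609.3 and 440.9 on the controls (0.45 ± 0.18, limma adjusted p = 0.106), with 0.31 at its other tested probe set, and it passed without control 1 (0.67).

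**Figure D4:**
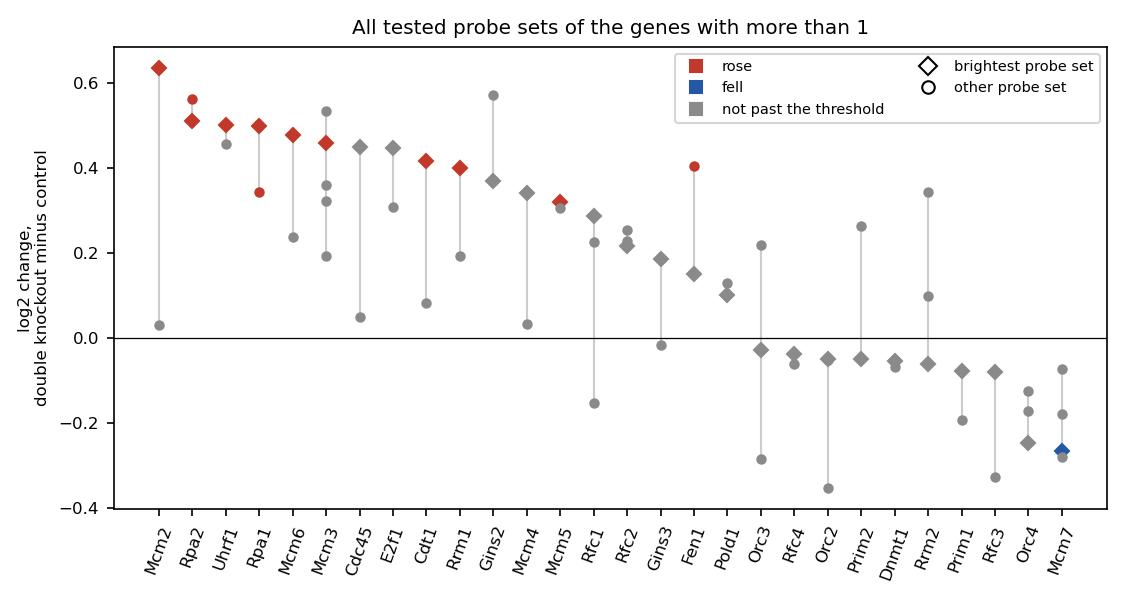
Log2 change (double knockout minus control, y axis) at every tested probe set of the 28 replication genes with more than 1, diamonds for the brightest; red rose, blue fell, grey did not pass. In 5 of the 28 genes the probe sets have both signs, and no gene has probe sets that rose and fell.

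Over probe sets the share that rose was lower than over genes, for the members and for the whole array alike. Of the 88 member probe sets tested, 15 rose, 1 fell and 72 did not pass, with a median log2 change of 0.19. Over all 27022 probe sets 11.7% rose and 11.6% fell. Of the 28 genes with several tested probe sets, 16 had positive changes at all of them, 7 had negative changes at all, and 5 (Orc3, Gins3, Prim2, Rfc1 and Rrm2) had both. Among the 9 genes with several probe sets whose brightest rose, 2 had another that rose.

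Other genes of replication, taken from a list of 44 that are not members, were read in the same fit. Of 42 tested 8 rose (19%, near the 16.3% of all genes), 2 fell (4.76%, against 11%) and 32 did not pass, with a median log2 change of 0.18. Esco2, which builds sister cohesion behind the fork, read 971.1 and 1010.4 on the double-knockout arrays and 676 and 561.4 on the controls (0.67, limma adjusted p = 0.00911). Dctd, a deaminase that makes the thymidylate precursor (0.66), and the RNase H2 subunits Rnaseh2b (0.65) and Rnaseh2c (0.52) rose too. Dck, the deoxycytidine salvage kinase, fell, with 6358 and 6560.8 in the double knockout against 8581.7 and 8441.2 in the controls (-0.40, limma adjusted p = 0.00423). Cdc7, the kinase that fires licensed origins, fell at the edge of the threshold (-0.30, limma adjusted p = 0.05). Salvage kinases for thymidine and deoxycytidine thus moved in opposite directions. Without control 2, double knockout 1 or double knockout 2 the count that rose was 5, 2 and 2. Cdc7 did not pass with any array left out (-0.35 to -0.26), Esco2 did not without double knockout 1 (0.70) or 2 (0.64), Rnaseh2b without double knockout 1 (0.44), and Dctd passed only without control 2.

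Among regulators of the E2F pathway, 5 of 22 tested rose (22.7%, against 16.3% of all genes), 2 fell (9.09%, against 11%) and 15 did not pass, with a median log2 change of 0.23. Both shares are near those of all genes. In limma without a variance trend 3 rose and 0 fell (2 at an unadjusted p under 0.05 in the fit with a trend). E2f8, an atypical E2F that represses S-phase genes, read 708.8 and 615 on the double-knockout arrays, against 398.1 and 321.6 on the controls (0.86, limma adjusted p = 0.00721). Cdkn1b (p27), an inhibitor of cyclin-dependent kinases, read 9375 and 6653.9 in the double knockout against 4675.1 and 4124.6 in the controls (0.84, limma adjusted p = 0.00218). Ccne2 (0.75) and Ccna2 (0.61), cyclins of S-phase entry and progression, and Cdkn1a (0.48), another inhibitor, rose, while the cyclin Ccne1 did not pass (0.08, limma adjusted p = 0.766). Cdc25a, the phosphatase that activates S-phase kinases, fell (-0.62, limma adjusted p = 0.0126; 902.6 and 1060 in the double knockout, 1690.4 and 1355.3 in the controls), as did the inhibitor Cdkn1c (-0.28, limma adjusted p = 0.0458). Calls were lost without double knockout 1 for E2f8 (0.76), Cdc25a (-0.51), Cdkn1a (0.40) and Cdkn1c (-0.35). They were lost without control 1 for Cdc25a (-0.46), Cdkn1a (0.44) and Cdkn1c (-0.19), and without double knockout 2 for Ccne2 (0.66) and Cdkn1c (-0.22).

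The replication genes are set beside genes of the later cell cycle and of the cells that use them. Among mitotic genes 23 of 28 rose (82.1%, against 16.3% of all genes). By limma 0 fell (0 at an unadjusted p under 0.05 as well), against 11% of all genes. The mitotic median log2 change was 0.53, against 0.20 for the replication genes. Both double-knockout arrays lay above both controls at all 28, against 39.8% of all genes. The lowest mitotic change, 0.28 for Ttk, lay above the replication median. The difference between these lists was not tested, since members share the arrays and are not replicates. The mitotic count was 15 without control 2, 14 without double knockout 1, 11 without double knockout 2 and 9 in limma without a variance trend.

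Markers of several cell types moved with the genotype, and their part in the replication values was not tested. Over all genes tested 16.3% rose and 11% fell in the fit with a trend on all arrays. Counts below from that fit stand beside these shares. Summed signals of 9 tested microglial and macrophage markers were 22319 and 20298 on the double-knockout arrays, against 6191 and 7017 on the controls, and all 9 rose (8 without double knockout 2). Among 5 intermediate progenitor markers 3 rose (Eomes, Neurog2 and Btg2), with summed signals of 21222 and 21248 against 15759 and 12692 in the controls. Of 12 neural progenitor markers 4 rose, Sox3 (0.63), Nes (0.61), Pax6 (0.44) and Vim (0.22), and Prom1 fell (-0.77). Their summed signals, in which Fabp7 and Vim weigh most, were 88074 and 89542 on the double-knockout arrays, against 85320 and 80056 on the controls. Of 12 markers of postmitotic neurons 8 fell and 1 rose, with summed signals of 132866 and 128432 against 165230 and 172253 in the controls. Endothelial markers rose at 4 of 6 genes and mesenchymal markers at 3 of 6, and 0 of 4 erythroid markers rose or fell by limma (0 at an unadjusted p under 0.05). Of 5 tested markers of brain regions 3 fell, with each array left out as well: Gbx2 (-1.12) and En2 (-0.74), genes of the midbrain and hindbrain border, and Otx2 (-0.51), a gene of the forebrain and midbrain. Emx2 (0.01) and Dlx2 (0.04), genes of the forebrain, did not pass, and En1 lay below the signal filter. Itgam of the microglial list and Klf1 of the erythroid list lay below the signal filter. Summed signals of the 48 replication genes were 115786 and 117100 on the double-knockout arrays, against 105851 and 101154 on the controls. Without single arrays the counts that rose were lower for endothelium (0 without control 1 or double knockout 1, 1 without double knockout 2) and for intermediate progenitors (2 without control 2 or either double-knockout array). In limma without a variance trend 1 endothelial, 0 mesenchymal (5 at an unadjusted p under 0.05 in the fit with a trend), 2 intermediate progenitor and 2 neural progenitor markers rose, and 5 neuronal and 2 region markers fell. Without control 2 or double knockout 1, 2 neural progenitor markers rose, and without control 1 or double knockout 2, 2 mesenchymal markers did.

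**Figure D5:**
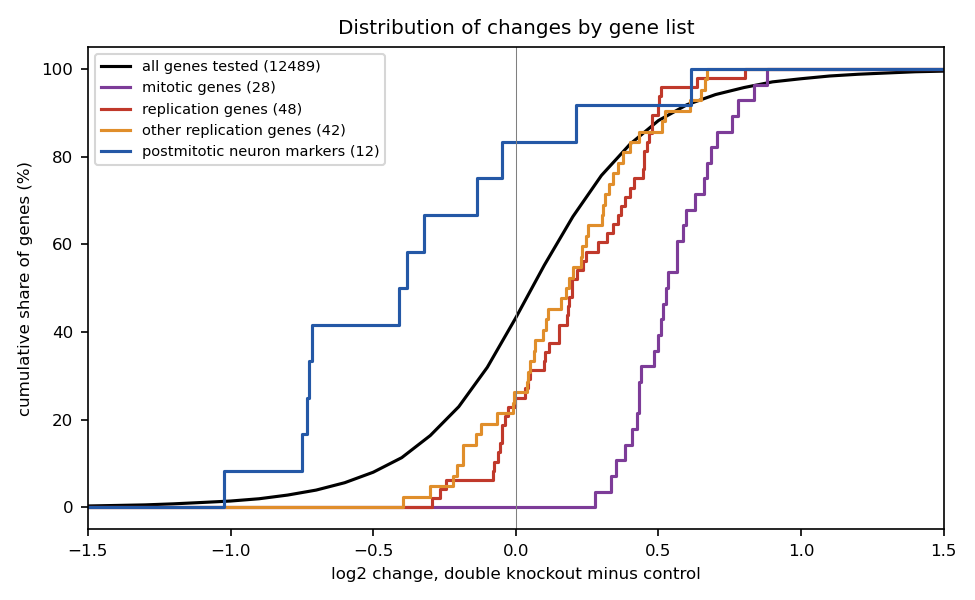
Cumulative share of genes (y axis, %) by log2 change (double knockout minus control, x axis) for mitotic genes, the replication genes, other replication genes, postmitotic neuron markers and all 12489 genes tested. The replication genes cross the midline of the plot near their median of 0.20, between all genes (0.06) and mitotic genes (0.53).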

How the data were processed

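Total RNA from whole brains (100 ng) was labelled with biotin and hybridised to 1-colour Affymetrix arrays, per the labels' protocols. The deposited values are linear probe set intensities, and the submitters' processing notes name MAS5 5.0. The deposited arrays share a trimmed mean of 1000, and such scaling would remove a shift common to most transcripts. No source used here names a genome build. Left out were 64 array controls. Symbols came from the platform annotation, and promoter windows from RefSeq (GRCm38.p6).

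Signals were tested as log2(signal + 16). Probe sets above the 40th percentile of mean log2 value (signal 154.6) were fitted with limma 3.58.1 in R 4.3.3 (lmFit, eBayes with a variance trend, Benjamini-Hochberg over all 27022 probe sets, adjusted p under 0.05), double knockout minus control. Every adjusted p is from this fit, and rose and fell refer to this threshold. A gene took its probe set with the highest mean. The number of arrays limits the precision. The steps were tested on simulated data. The members and lists were chosen with earlier results of these data known. All members are named. Values of every array are given for members past the threshold, at least 1 member per role and members whose probe sets disagree. In other lists up to 4 genes that passed are named by size of change. Recql4, of the other replication genes, had a larger change (0.61) than Rnaseh2c and did not pass (limma adjusted p = 0.126). Dck, Cdc7, Ccna2, Cdkn1a, Cdkn1c and Ttk were named after their values were seen. Ccne1, Vim, Emx2 and Dlx2 were also named outside this rule.

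Alternatives were quantile normalization and median centring, pseudocounts of 1 and 64, no filter or the 60th percentile, eBayes without trend or robust, a threshold of 0.1, leaving out each array, the replicate number as a block, averaging the probe sets of a gene, and probe sets without the suffix x or s. Counts of the mitotic and cell type lists with arrays left out were added after the data were seen.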

Additional observations from a re-analysis of the deposited data

How the results depend on the processing

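None of the 13 replication genes that passed the threshold changed sign under the 16 alternatives. The count of replication genes that rose was 9 to 16 under the alternatives that kept all arrays, except 3 in limma without a variance trend, and 3 to 14 with an array left out. The count that fell was 0 with median centring, with no filter, without a variance trend, with the mean of probe sets and with probe sets lacking the suffix x or s, and 0 to 1 with an array left out. The median log2 change was 0.24 with median centring, which also took the median of all genes to 0.10, and 0.19 to 0.21 with an array left out. Over probe sets, 3 rose without a variance trend and 4 to 20 with an array left out. The number of probe sets that fell was 0 with median centring, no filter or no variance trend, 3 at a threshold of 0.1, and 0 to 1 with an array left out. Same-numbered arrays of the groups did not deviate together (r = 0.0028 across probe sets), and with the replicate number as a block 14 genes rose and 1 fell, the 12 genes that rose among them. Of the other replication genes 5 rose with no filter and 3 without a variance trend. Members that never passed changed sign near 0. With median centring Orc3 had 0.013, Rfc4 0.004 and Chaf1b 0.039, and with quantile normalization Chaf1b had 0.025. With the mean of probe sets Prim2 had 0.11 and Rrm2 0.13, and without the suffixes x and s Rrm2 had 0.10. With an array left out the log2 change ran from -0.12 to 0.19 for Orc1, -0.31 to 0.21 for Orc2, -0.15 to 0.10 for Orc3, -0.039 to 0.12 for Orc6, -0.23 to 0.14 for Prim2, -0.003 to 0.21 for Pold1, -0.032 to 0.13 for Pole, -0.17 to 0.0049 for Rfc3, -0.13 to 0.053 for Rfc4, -0.18 to 0.17 for Chaf1b and -0.15 to 0.044 for Dnmt1. Leaving out an array leaves fewer residual degrees of freedom, and the lone array is assumed to vary like the pair. For the other alternatives the cause was not tested. Tk1 and Rpa1 passed under all 16 alternatives. Dim probe sets, such as those of Tyms and Orc1, limit what could be seen.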
